A study of Ovis aries with 16 samples.

Results

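The genes described here handle serotonin, melatonin and noradrenaline in the hypothalamus of the late-gestation sheep fetus: AANAT, 5HT2A, SLC6A4, SLC6A2, ADRB1 and ADRB3. Their probes were found by the gene name, or the alias in the description, that the scanner files give each non-control probe. This gave 6 genes of the 902 that could be named on the array, with 8 of its 15008 probes: 2 for AANAT, 2 for SLC6A4 and 1 for each of the other genes. A probe entered the tests when 4 or more of the 16 arrays had it well above background, as the scanner software calls it. By that rule 7 of the 8 were among the 12937 probes tested, and the second SLC6A4 probe was left out.

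Hypothalami of 16 chronically catheterized fetuses, 1 fetus per array, were measured on a 1-colour Agilent sheep array. The fetuses were at 124 to 128 days of gestation (term 147 days). There were 4 groups of 4. The control group had a sham occlusion and no other treatment. The BCO group had its brachiocephalic artery, which supplies the fetal head and forelimbs, occluded for 10 min and then 50 min of recovery. The estradiol group received 250 µg of estradiol per day for 5 days and a sham occlusion. The estradiol+BCO group received both the estradiol and the occlusion. All fetuses were bled through indwelling catheters during the experiment, and tissue was collected 1 h after its start, so each measurement is a single early time point. Each array held whole hypothalamus, in which fewer cells of a type and less RNA per cell cannot be told apart. The p-values measure the spread between fetuses.

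AANAT (arylalkylamine N-acetyltransferase) acetylates serotonin, the step before melatonin is made, and is best known from the pineal gland. 5HT2A is the serotonin 2A receptor (current symbol HTR2A), a Gq-coupled receptor. SLC6A4 and SLC6A2 are the plasma membrane transporters that take up serotonin and noradrenaline into the terminals that release them. The neurons that make both amines have their cell bodies mostly in the brainstem, from where their axons reach the hypothalamus. ADRB1 and ADRB3 are Gs-coupled beta-adrenergic receptors, and ADRB3 is best known from fat.

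The probes are 60 bases long, and 2 pairs of them are shown because the results below turn on how much of their sequence is shared. Capitals mark the longest run that the members of a pair have in common, and all are written 5′ to 3′. The AANAT probes are the same stretch of the mRNA shifted by 1 base, sharing 59 bases, so they are repeat measurements of 1 site and not independent ones.
AANAT A_70_P030306: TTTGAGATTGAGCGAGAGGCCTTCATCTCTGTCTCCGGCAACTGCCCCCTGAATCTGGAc
AANAT A_70_P030307: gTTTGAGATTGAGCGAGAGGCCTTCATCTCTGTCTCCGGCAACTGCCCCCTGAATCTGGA
The SLC6A4 probes overlap on the mRNA and share 20 bases, at the end of one and the start of the other.
SLC6A4 A_70_P051322: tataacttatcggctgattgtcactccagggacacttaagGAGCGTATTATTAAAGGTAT
SLC6A4 A_70_P051321: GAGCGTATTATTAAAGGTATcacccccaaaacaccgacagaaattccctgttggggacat
A search of all 15008 probes on both strands found no probe outside these pairs that shares 20 or more bases with a member. The array files list the genome position of all 8 probes as unmapped.

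Levels below are the log2 of the processed signal, which is the scanner software's background-subtracted brightness, minus the 75th percentile of that array. A difference of 1 on this scale is a factor of 2 in brightness. The arrays were alike in overall brightness: the 75th percentile was 2021 to 2904 intensity units, and 11596 to 12969 probes were well above background. There were 2 slides, and every group had 2 of its arrays on each. Of a list of 18 hypothalamic neuron genes, 13 had a probe and 10 of these were well above background on all 16 arrays, none being below background throughout.

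**Figure D1:**
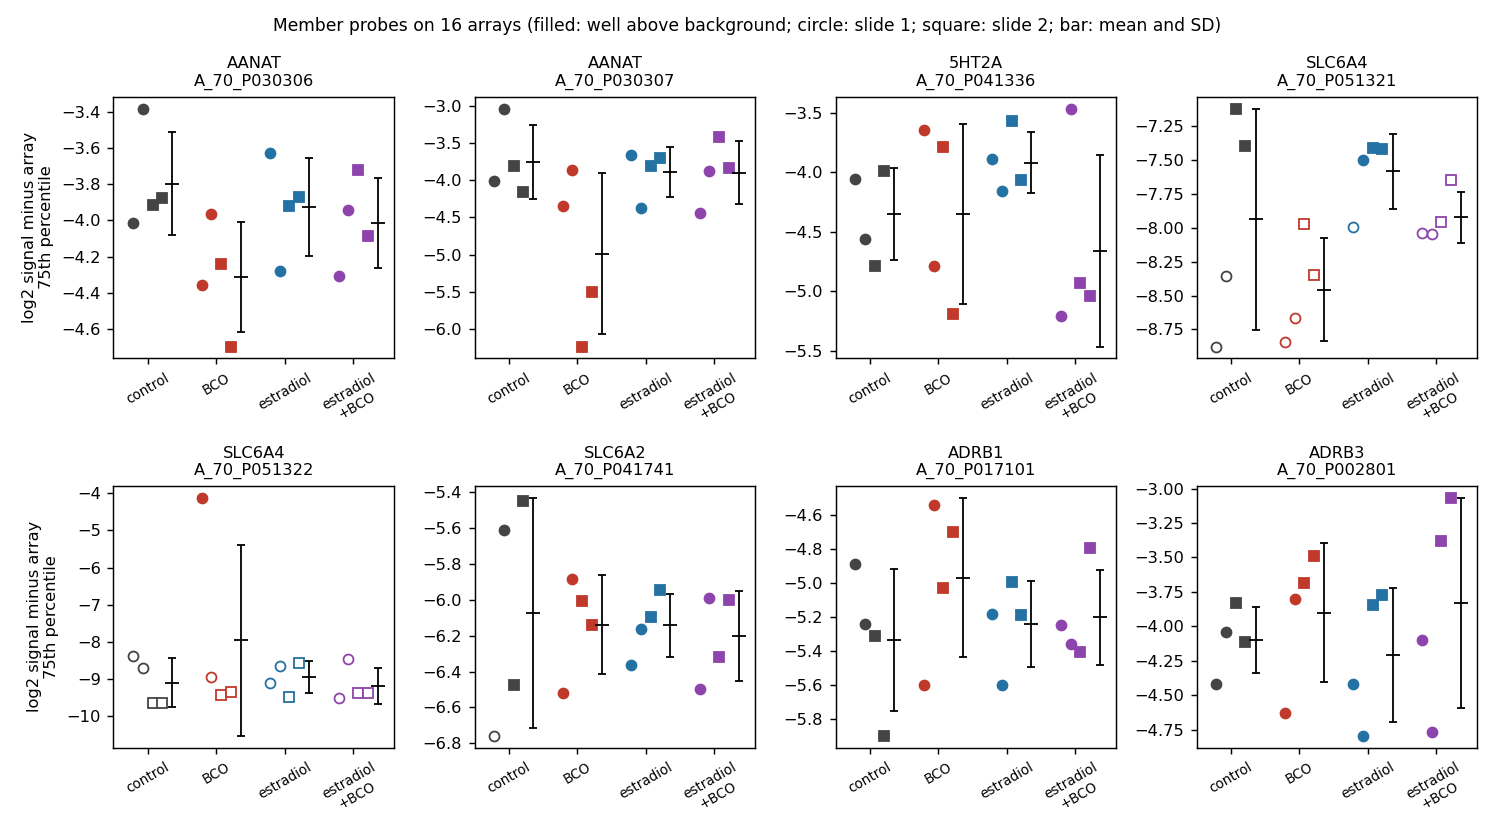
Level of each member probe on each of the 16 arrays, as log2 processed signal minus the array's 75th percentile (vertical axes, each with its own range), by group. Filled points were well above background, circles are slide 1, squares are slide 2, and the bars give the mean and SD of 4 arrays. The 2 low BCO squares of AANAT A_70_P030307 and the 1 filled BCO point of SLC6A4 A_70_P051322 stand apart.

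None of the 7 tested member probes passed an adjusted p of 0.05 in any comparison. The background was as low: over all probes, 0% passed for BCO against control, 0.00773% (1 probe, no member) for estradiol+BCO against estradiol, 0% for estradiol against control and 0% for estradiol+BCO against BCO. The averaged occlusion and estradiol effects also gave 0%, and the interaction 0.00773%. At an unadjusted p under 0.05 the count was 2 of 7 for BCO against control, both of them AANAT probes at the same site, where 7.17% of all probes passed. For estradiol+BCO against BCO it was 1 of 7 (9.45% of all probes) and for the averaged occlusion effect 1 of 7 (7.6% of all probes), again AANAT. The other comparisons had 0 of 7, against 7.73% of all probes for estradiol+BCO against estradiol, 3.28% for estradiol against control, 5.58% for the averaged estradiol effect and 7.21% for the interaction. With slide in the model no member passed the adjusted threshold either, but SLC6A4 A_70_P051321 joined the unadjusted counts. They became 3 of 7 for BCO against control (8.37% of all probes), 2 of 7 for estradiol+BCO against BCO (11.3%), 2 of 7 for the averaged occlusion effect (8.77%) and 1 of 7 for the averaged estradiol effect (6.9%). They stayed at 0 of 7 for estradiol+BCO against estradiol (8.91%), estradiol against control (4.01%) and the interaction (8.53%). SLC6A4 A_70_P051321 entered the tests through sham arrays alone, so its place in the occlusion counts is no support for a difference. Its place in the estradiol counts takes in occluded arrays on which it was not well above background. The AANAT probes counted were the same with and without slide. Exact 2-sided permutation tests over the arrays gave no p under 0.05 in 42 tests of member probes. With 4 arrays against 4 the smallest p they can give is 0.0286.

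The direction was not shared by the set. After BCO alone 2 of 7 probes were higher and 5 lower than in controls (51.9% and 48.1% of all tested probes), with a median log2 difference of −0.06 against 0.01 over all tested probes. After BCO in estradiol-treated fetuses it was again 2 higher and 5 lower (48.4% and 51.6% of all), with a median of −0.06 against −0.01 over all probes. With estradiol alone 3 were higher and 4 lower (48.6% and 51.4% of all), with a median of −0.07. Among occluded fetuses 4 were higher and 3 lower with estradiol (46.5% and 53.5% of all), with a median of 0.07, while the medians over all probes were −0.01 and −0.02. In these 4 comparisons the groups overlapped for each of the 7 probes. Among all tested probes, the 4 arrays of one group were all higher than, or all lower than, the 4 of the other for 2.25% and 1.79% (BCO against control), 2.16% and 2.88% (estradiol+BCO against estradiol), 1.66% and 1.47% (estradiol against control), and 1.67% and 2.57% (estradiol+BCO against BCO). The comparisons share groups and are not independent of each other.

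**Figure D2:**
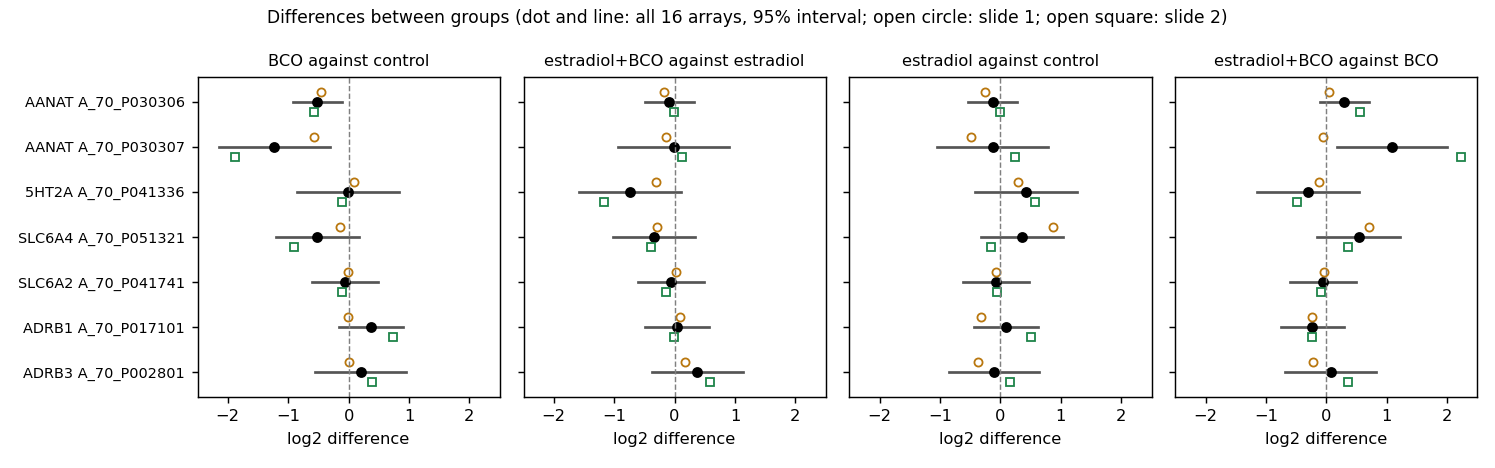
Log2 difference (horizontal axes) of the 7 tested member probes in the 4 simple comparisons. Black dots and lines are the fit over all 16 arrays with its 95% interval, open circles are slide 1 alone and open squares slide 2 alone. Both AANAT intervals lie below 0 for BCO against control, and A_70_P030307 has its slide values furthest apart.

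AANAT was measured on all 16 arrays by both probes, and its lowest group means were in BCO fetuses. By A_70_P030306 the 4 controls were at −4.02, −3.38, −3.91 and −3.88, and the 4 BCO fetuses at −4.36, −3.96, −4.24 and −4.70. Only 1 BCO fetus, at −3.96, lay within the range of the controls. The estradiol fetuses were at −3.63, −4.28, −3.92 and −3.87, and the estradiol+BCO fetuses at −4.31, −3.94, −3.72 and −4.09, both overlapping the controls. The group means were −3.80 ± 0.28 (SD, n = 4) in controls, −3.93 ± 0.27 with estradiol, −4.01 ± 0.25 with estradiol+BCO and −4.31 ± 0.30 with BCO. The first 3 of these differ by less than their SD.

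The difference of BCO from control by A_70_P030306 was −0.52 ± 0.19 (SE; 95% interval −0.92 to −0.11; limma, unadjusted p = 0.0162, adjusted p = 0.552). The exact permutation p was 0.0571. It was −0.46 on slide 1 and −0.57 on slide 2. In estradiol-treated fetuses the difference of occluded from sham was −0.09 ± 0.19, and the interaction was 0.43 ± 0.27 (adjusted p = 0.815), so the occlusion differences with and without estradiol were not shown to differ. Averaged over both, the occlusion difference was −0.30 ± 0.13 (adjusted p = 0.635; exact permutation p = 0.0567).

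A_70_P030307 gave the same order for BCO but a larger difference, which came from 2 arrays. The controls were at −4.01, −3.04, −3.82 and −4.16 and the BCO fetuses at −4.35, −3.86, −6.23 and −5.50. BCO fetuses 3 and 4 were below every other array, 1 of the others lay just below the controls and 1 within their range. The estradiol fetuses were at −3.66, −4.38, −3.81 and −3.70, and the estradiol+BCO fetuses at −4.44, −3.88, −3.43 and −3.84. The difference of BCO from control was −1.23 ± 0.43 (adjusted p = 0.539; exact permutation p = 0.0857). It was −0.58 on slide 1 and −1.87 on slide 2, where both low arrays lie. The difference of estradiol+BCO from BCO was 1.09 ± 0.43 (adjusted p = 0.434; exact permutation p = 0.171), being −0.06 on slide 1 and 2.23 on slide 2.

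The gap between the AANAT probes, which differ by a shift of 1 base, was small on most arrays. On 14 arrays A_70_P030307 minus A_70_P030306 was between −0.29 and 0.34. It was −1.99 on BCO array 3 and −0.80 on BCO array 4. On array 3 the processed signals were 122.8 and 30.83 intensity units, and on array 4 they were 89.74 and 51.48. For comparison, 162 probe pairs of the array are also shifted by 1 base and well above background everywhere. Their median absolute gap was 0.114, with 5.75% of gaps over 0.5 and 0.965% over 1. The gap on BCO array 4 is over 0.5 but not over 1. Among the 47 pairs as bright as AANAT (median level −5 to −3), 14 of 752 gaps, or 1.86%, were over 1. What set the gaps on BCO arrays 3 and 4 apart was not tested. Averaged over both probes, AANAT was at −4.65 ± 0.63 (SD, n = 4) in BCO fetuses and −3.78 ± 0.38 in controls, a difference of −0.87 ± 0.29 (SE; adjusted p = 0.496).

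**Figure D3:**
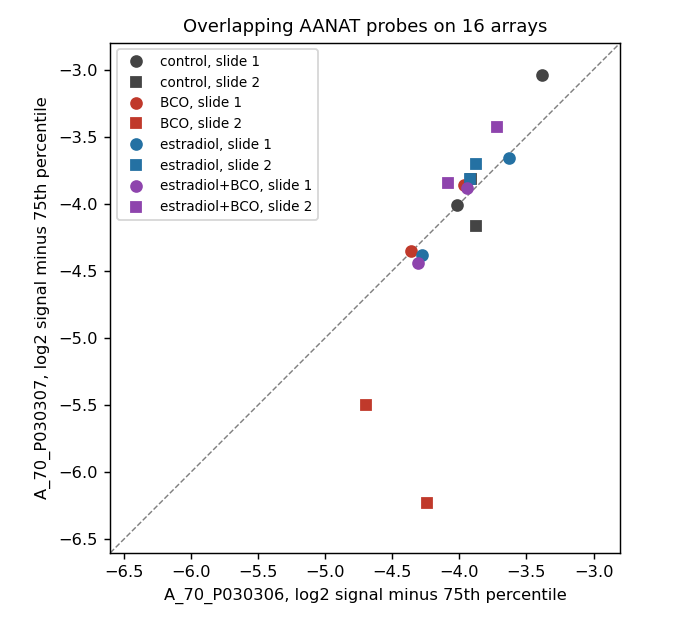
The 2 AANAT probes plotted against each other for the 16 arrays, both axes as log2 processed signal minus the array's 75th percentile, with the line of equality. Of the arrays, 14 lie within 0.35 of the line, and BCO arrays 3 and 4 lie 1.99 and 0.80 below it.

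The summed signal of the hypothalamic neuron list was low on the same group of arrays. As a multiple of each array's 75th percentile, it was 5.02 to 12.9 in BCO fetuses and 20.3 to 34.9 in controls. It was 14.7 to 46.7 with estradiol and 17.9 to 34.9 with estradiol+BCO. The brightest genes weigh most in such a sum, so it does not show that every gene of the list was low. The part of this sum in the AANAT values was not tested. Of 11 pinealocyte marker genes, AANAT was the only one with a named probe here, so the array gives no second marker of pineal cells beside it.

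Downstream of AANAT, the melatonin receptor gene MTNR1A and its relative GPR50 were near the limit of the array. MTNR1A A_70_P051406 was well above background on 5 of 16 arrays: 2 controls, 1 BCO, 2 estradiol and 0 estradiol+BCO. Its estradiol values ran from 5.544 to 60.31 intensity units, and its estradiol+BCO values from 3.599 to 16.53. These ranges overlap, the estradiol values rest on 2 of 4 arrays well above background, and no fold is given. A second MTNR1A probe was well above background on 1 array, an estradiol fetus, and GPR50 on none. Of the 5 genes of the melatonin list, 3 had a probe (AANAT, MTNR1A and GPR50), and 0 passed the adjusted threshold in either direction.

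The serotonin receptor 5HT2A was detected in all fetuses, and its SDs were larger in the occluded groups than in the sham groups, a difference in spread that was not tested. Controls were at −4.06, −4.56, −4.78 and −3.99, and estradiol fetuses at −3.89, −4.16, −3.57 and −4.06. BCO fetuses were at −3.64, −4.78, −3.79 and −5.19. Estradiol+BCO fetuses were at −5.21, −3.46, −4.93 and −5.04. In that last group 3 fetuses were below all estradiol fetuses and 1 was above all of them, so the groups overlap. The means were −3.92 ± 0.26 (SD, n = 4) with estradiol, −4.35 ± 0.39 in controls, −4.35 ± 0.76 with BCO and −4.66 ± 0.80 with estradiol+BCO. The estradiol and control means differ by 0.43, more than either SD, and the other neighbours in that order differ by less than their SDs.

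The difference in 5HT2A of estradiol+BCO from estradiol was −0.74 ± 0.39 (SE; 95% interval −1.58 to 0.10; adjusted p = 0.689; exact permutation p = 0.143). It was −0.31 on slide 1 and −1.17 on slide 2. Without the high estradiol+BCO fetus it was −1.14, with an adjusted p of 0.291. Leaving out each array in turn, it ran from −1.14 to −0.56. In fetuses without estradiol BCO gave −0.01 ± 0.39, and the interaction was −0.73 ± 0.56 (adjusted p = 0.867). Estradiol alone gave 0.43 ± 0.39 (adjusted p = 1; exact permutation p = 0.171).

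The serotonin transporter SLC6A4 was close to the limit of the array, and the sham arrays held all the signals that A_70_P051321 had well above background. In controls its processed signal was 4.391, 6.165, 20.83 and 14.07 intensity units, the last 2 being well above background. In estradiol fetuses it was 9.03, 12.5, 13.4 and 14.47, the last 3 being well above background. In BCO fetuses it was 5.046, 5.684, 9.21 and 7.161, and in estradiol+BCO fetuses 9.435, 8.433, 9.455 and 11.57, none of them well above background. The count was thus 5 of 8 sham arrays and 0 of 8 occluded arrays, and the probe passed the filter through sham arrays alone. Of the 5 arrays, 1 was on slide 1 and 4 on slide 2. The dimmest probe called well above background differed between arrays. It was at 9.913 to 13.99 units on these 5 arrays and at 12.02 to 17.59 on the occluded arrays. The 12.5 units of the second estradiol fetus were thus below that level on most occluded arrays. The part of these limits in the count was not tested.

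By its levels, SLC6A4 A_70_P051321 was at −7.58 ± 0.28 (SD, n = 4) with estradiol, −7.92 ± 0.19 with estradiol+BCO, −7.94 ± 0.82 in controls and −8.46 ± 0.38 with BCO. Since the probe entered the fit through sham arrays alone, its fitted differences between occluded and sham fetuses are given as a description, with no test. BCO minus control was −0.52, and it was −0.14 on slide 1, −0.90 on slide 2, −0.25 without control 3, −0.0447 with quantile normalization and −0.0996 with normexp background correction. Estradiol+BCO minus estradiol was −0.34. Among the sham fetuses, where 2 controls and 3 estradiol fetuses were well above background, estradiol minus control was 0.36 ± 0.32 (SE; adjusted p = 1; exact permutation p = 0.514), being 0.87 on slide 1 and −0.16 on slide 2. Among the occluded fetuses, none of them well above background, estradiol+BCO minus BCO was 0.53. Averaged over sham and occluded fetuses, the estradiol difference was 0.44 ± 0.23 (SE; adjusted p = 0.88; exact permutation p = 0.0829). It was 0.79 on slide 1 and 0.10 on slide 2. This average takes in the occluded fetuses, whose values are not well above background, so its p-values are no support for a difference. No fold is given for any of these, because the occluded groups have only an upper bound and the sham group means lie below it. Detection on 5 or more of 8 sham arrays and 0 of 8 occluded arrays was found for 0.00773% of the tested probes, this 1 probe, and the reverse pattern for 1 other probe; the limits of 5 and 0 were taken from this probe's own counts.

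The neighbouring SLC6A4 probe did not show that pattern. A_70_P051322 was well above background on 1 array, the first BCO fetus, at 132 intensity units, and between 2.966 and 6.479 on the other 15. On that BCO array the neighbouring A_70_P051321, with which it shares the 20 bases printed above, read 5.046. The pixels of that single bright spot had an SD of 33.3% of their mean, against 16.8% to 25.5% for the same probe on the other arrays. The scanner software did not mark the spot as an outlier. Of 8 genes listed for serotonergic neurons of the raphe, 2 had a probe, SLC6A4 and GATA3, the latter well above background on all 16 arrays. Their summed signal, as a multiple of the 75th percentile, was 0.0685 to 0.178 in controls and 0.125 to 0.489 in BCO fetuses, and 0.0920 to 0.287 with estradiol and 0.145 to 0.558 with estradiol+BCO. These ranges reach higher in the occluded groups and all overlap. The sums are nearly all GATA3 signal, since SLC6A4 is close to the limit of the array. The A_70_P051321 signals well above background were all on sham arrays. Of the serotonin list only 5HT2A and SLC6A4 had a probe, with 0 passing the adjusted threshold in either direction.

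**Figure D4:**
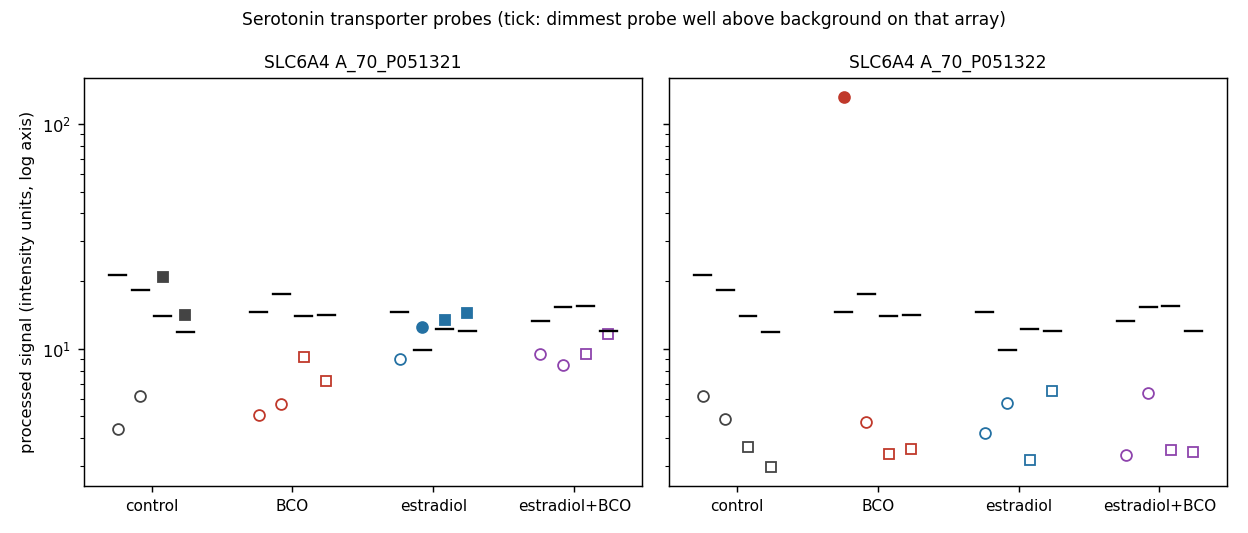
Processed signal (intensity units, log axis) of the 2 SLC6A4 probes on the 16 arrays by group. Filled points were well above background, circles are slide 1 and squares slide 2, and each tick is the dimmest probe called well above background on that array. A_70_P051321 is filled on 5 sham arrays and on no occluded array, and A_70_P051322 is filled on the first BCO array alone.

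The noradrenaline transporter SLC6A2 had nearly the same mean in all 4 groups. It was well above background on 15 of 16 arrays, all but 1 control. Controls were at −6.76, −5.61, −6.48 and −5.45, spanning the values of every other group. The other 12 arrays lay between −6.52 and −5.89. The 4 group means ran from −6.20 to −6.07, and the 4 simple comparisons gave differences of −0.07 to −0.06, each ± 0.255 (SE). The 95% interval of BCO against control was −0.61 to 0.48, so differences inside it are not excluded by these arrays.

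Of the beta-adrenergic receptors, ADRB1 was at −4.89, −5.24, −5.31 and −5.90 in controls and at −5.60, −4.54, −5.03 and −4.70 in BCO fetuses. Those groups overlap: 1 BCO fetus was below 3 of the controls. The difference was 0.37 ± 0.25 (SE; 95% interval −0.16 to 0.89; adjusted p = 0.83; exact permutation p = 0.314), and it was −0.0071 on slide 1 and 0.74 on slide 2. The estradiol and estradiol+BCO means were −5.24 ± 0.25 and −5.20 ± 0.28 (SD, n = 4), between those of controls (−5.34 ± 0.42) and BCO (−4.97 ± 0.47). In estradiol-treated fetuses occlusion gave 0.04 ± 0.25 (SE; 95% interval −0.49 to 0.57).

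ADRB3 passed the adjusted threshold between slides and in none of the group comparisons. On slide 1 its mean over 8 arrays was −4.37 and on slide 2 −3.65, a difference of 0.72 ± 0.16 (limma with group and slide, adjusted p = 0.0148). SLC6A4 A_70_P051321 also differed, by 0.63 ± 0.16 (adjusted p = 0.0269). It was well above background on only 1 array of slide 1 and 4 of slide 2, so most of its values lie near background. ADRB3 and this probe were 2 of 7 member probes, both higher on slide 2, where 5.87% of all tested probes were higher by that rule (6.63% in either direction). Within slides, the estradiol+BCO fetuses had ADRB3 at −4.10 and −4.77 on slide 1 and at −3.38 and −3.07 on slide 2. The BCO fetuses were at −4.63, −3.80, −3.68 and −3.49, the controls at −4.42, −4.04, −3.83 and −4.11, and the estradiol fetuses at −4.42, −4.80, −3.85 and −3.77. All 4 groups overlap. The averaged occlusion difference of ADRB3 was 0.29 ± 0.25 (SE; adjusted p = 0.846; exact permutation p = 0.278), 0.09 on slide 1 and 0.49 on slide 2, and with slide in the model its adjusted p was 0.631.

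Of 8 genes listed for fat cells, 6 had a probe and 4 of them were well above background on all 16 arrays. Their summed signal was 0.279 to 0.366 times the 75th percentile in BCO fetuses and 0.303 to 0.345 in controls, and 0.258 to 0.374 with estradiol+BCO and 0.279 to 0.373 with estradiol, overlapping in all 4 groups. Of the noradrenaline list only SLC6A2, ADRB1 and ADRB3 had a named probe, and no gene of the dopamine list had one. None of the 3 passed the adjusted threshold in either direction.

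Over the 16 arrays the overlapping AANAT probes had r = 0.775, and 0.92 without the 2 arrays on which they part. Among the other pairs of tested member probes r was from −0.61 (5HT2A with ADRB3) to 0.51 (ADRB1 with ADRB3). These are descriptions, and the points share arrays, slides and groups.

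For each member probe well above background on all arrays, the most similar patterns were sought among 687 named genes. The 5HT2A pattern was nearest to those of FGFR1, a fibroblast growth factor receptor (r = 0.847), EAAT1, a glial glutamate transporter (r = 0.803), and PTGFR, the prostaglandin F receptor (r = 0.737). After group and slide means were taken off, these were 0.86, 0.778 and 0.74. AANAT A_70_P030306 was nearest to CSN3, PAX4 and CAT-1 (r = 0.784, 0.758 and 0.751), while A_70_P030307 was nearest to IL12A, HRH2 and SPP1 (r = 0.856, 0.735 and 0.691). Without group and slide these were 0.77, 0.801 and 0.713 for the former and 0.723, 0.632 and 0.435 for the latter. The overlapping AANAT probes thus shared none of their 3 nearest genes. ADRB1 was nearest to GRM5, ZO3 and AQP2 (r = 0.781, 0.762 and 0.752), and r with these was 0.775, 0.844 and 0.838 without group and slide. ADRB3 was nearest to GLP1R, GNLY and CALM2 (r = 0.822, 0.817 and 0.81), and these were 0.515, 0.611 and 0.672 without group and slide. Each set of 3 is the highest 3 of 687 values over 16 arrays.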

How the data were processed

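Total RNA (500 ng per sample, RNA integrity numbers 7.4 to 8.4, per the labels) was labelled with Cy3 and hybridised to a 1-colour Agilent array of design 019921. The deposited files hold each array's scanner output from Feature Extraction 10.1.1.1 (protocol GE1-v5_10_Apr08), per the file headers. The intensity used, the processed signal, was background-subtracted by that software, per the file headers. The deposited series table was found to hold log2 processed signals minus each array's median and was used as an alternative. Here log2 of the processed signal minus each array's 75th percentile was taken, spots of one probe were averaged, and spots the software marked as outliers were set to missing. Of 15008 distinct probes, 12937 were well above background on at least 4 of 16 arrays and were tested.

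All 16 arrays entered one limma fit (version 3.58.1, R 4.3.3) with group as the only term, 2-sided moderated tests and Benjamini-Hochberg adjustment over all tested probes at 0.05. The script was tested on simulated data. Exact permutation tests over arrays used the difference of means. Every probe of the 6 genes is named, as are other genes of the serotonin, melatonin, noradrenaline and dopamine lists that had a probe, and the 3 genes with the highest r to each member. Members and lists were chosen with earlier results of these data known. Probes were named from the files and the ARS-UI_Ramb_v3.0 name table, which gave 1452 of 15008 a name, so a list gene without a probe here may be among the unnamed. Alternatives were quantile and median scaling, normexp background correction (offset 50), other filters on dim probes, the deposited series table, slide as a block or alone, the replicate number as a block, leaving out each array and, chosen after seeing the data, the mean of the AANAT probes. The number of arrays limits the precision.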

Additional observations from a re-analysis of the deposited data

Results flagged for a closer look

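Groups of 4 values, 44 in all, were examined for a sample far from the others. The 3 described below lie in groups with some values well above background. Samples also stood apart in groups with no value well above background. These were the third control for GPR50 (−9.99, the others −8.82 to −8.70) and the second estradiol+BCO fetus for SLC6A4 A_70_P051322 (−8.45, the others −9.52 to −9.38). The second estradiol+BCO fetus had 5HT2A at −3.46, and the other 3 lay between −5.21 and −4.93. The first estradiol fetus had SLC6A4 A_70_P051321 at −7.99, the only estradiol array where it was not well above background, and the others lay between −7.50 and −7.41. The first BCO fetus had SLC6A4 A_70_P051322 at −4.13, and the others lay between −9.42 and −8.94, none of them well above background.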

How the results depend on the processing

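No member probe passed the adjusted threshold in any of the 26 alternative fits: over 1260 values the lowest adjusted p was 0.0891, for AANAT A_70_P030307 in estradiol+BCO against BCO on slide 2 alone. The sign held in all of them for 21 of 49 results. The difference of AANAT in BCO against control held its sign throughout, at −0.63 to −0.37 (A_70_P030306, adjusted p 0.347 to 1) and −1.87 to −0.58 (A_70_P030307, adjusted p 0.145 to 0.998). The averaged occlusion difference of SLC6A4 A_70_P051321 was −0.64 to −0.13. That range is a description with no test, because the probe passed the filter through sham arrays alone. None of the occluded arrays had it well above background. Other results changed sign, most of them near 0, and the cause was not tested. With normexp background correction the turned log2 differences were 5HT2A 0.089, SLC6A2 0.028 (BCO against control), ADRB1 −0.16 (estradiol+BCO against estradiol), AANAT A_70_P030307 0.0011, SLC6A2 0.22 (estradiol against control), SLC6A4 −0.014 (estradiol+BCO against BCO), ADRB1 0.0925, ADRB3 0.014, SLC6A2 0.057, MTNR1A 0.0725 (estradiol averaged over BCO), SLC6A2 −0.33, SLC6A4 −0.27 (interaction). With quantile normalization they were 5HT2A 0.0054 (BCO against control), AANAT A_70_P030307 0.0301, SLC6A2 0.012 (estradiol+BCO against estradiol), ADRB3 0.028, MTNR1A 0.045 (estradiol averaged over BCO), SLC6A4 −0.17 (interaction). With median centring they were AANAT A_70_P030307 0.0066 (estradiol+BCO against estradiol), MTNR1A 0.0025 (estradiol averaged over BCO). With the deposited series table they were AANAT A_70_P030307 0.0029 (estradiol+BCO against estradiol), MTNR1A 0.0046 (estradiol averaged over BCO). On slide 1 alone they were 5HT2A 0.10, ADRB1 −0.0071 (BCO against control), SLC6A2 0.021 (estradiol+BCO against estradiol), ADRB1 −0.33 (estradiol against control), AANAT A_70_P030307 −0.058, ADRB3 −0.22 (estradiol+BCO against BCO), SLC6A2 0.0024 (BCO averaged over estradiol), AANAT A_70_P030306 −0.11, AANAT A_70_P030307 −0.28 (estradiol averaged over BCO), ADRB1 0.10, SLC6A4 −0.16 (interaction). On slide 2 alone they were AANAT A_70_P030307 0.12, ADRB1 −0.0093 (estradiol+BCO against estradiol), AANAT A_70_P030307 0.23, ADRB3 0.16, SLC6A4 −0.16 (estradiol against control), ADRB1 0.14, ADRB3 0.26, MTNR1A 0.065 (estradiol averaged over BCO), SLC6A2 −0.028 (interaction). Leaving out each array in turn, the ranges of results that turned were 5HT2A −0.24 to 0.28, SLC6A2 −0.29 to 0.14, MTNR1A −0.046 to 0.54 (BCO against control), AANAT A_70_P030306 −0.21 to 0.0099, AANAT A_70_P030307 −0.18 to 0.17, ADRB1 −0.095 to 0.12, SLC6A2 −0.13 to 0.04 (estradiol+BCO against estradiol), AANAT A_70_P030306 −0.23 to 0.009, AANAT A_70_P030307 −0.26 to 0.11, ADRB1 −0.10 to 0.24, ADRB3 −0.25 to 0.089, SLC6A2 −0.30 to 0.14 (estradiol against control), ADRB3 −0.18 to 0.38, SLC6A2 −0.19 to 0.035 (estradiol+BCO against BCO), SLC6A2 −0.18 to 0.043 (BCO averaged over estradiol), 5HT2A −0.14 to 0.18, ADRB1 −0.18 to 0.004, ADRB3 −0.14 to 0.14, SLC6A2 −0.18 to 0.038, MTNR1A −0.27 to 0.28 (estradiol averaged over BCO), ADRB3 −0.076 to 0.49, SLC6A2 −0.20 to 0.23, SLC6A4 −0.095 to 0.49 (interaction).

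The number of probes past the adjusted threshold, over all probes, was small under each setting. For estradiol+BCO against estradiol it was 1, and 0 with median centring, the deposited series table, either slide alone or the replicate block. For the interaction it was 1, then 0 with quantile normalization, median centring, no filter, the series table or either slide alone, and 3 with slide or the replicate number as a block. On slide 2 alone it was 14 for BCO against control, 1 for estradiol against control and 13 for estradiol+BCO against BCO, and on slide 1 alone 1 for the averaged estradiol effect, each 0 over all arrays. Leaving out each array in turn gave 0 to 6 for BCO against control (6 without the second BCO array), 0 to 1 for estradiol+BCO against estradiol, 0 to 5 for estradiol+BCO against BCO (5 without the first BCO array), 0 to 1 for the averaged estradiol effect and 0 to 3 for the interaction (3 without the first BCO array). No member was among these probes. No pairing of fetuses by replicate number was seen, though such a check cannot exclude a weak one. Deviations of same-numbered arrays correlated at −0.03 to 0.28, and 3 of 16 arrays matched their own number best. The median was 0.124 for same-numbered arrays and 0.142 for arrays of different number on the same slide. SLC6A4 and MTNR1A lie near the array's background, so their levels there are bounds rather than measurements. SLC6A2 is dim as well, and 1 of its 16 values was not well above background.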
